A study of Homo sapiens with 4 samples.

Results

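The HAUSP peaks that were found only in MDA-MB-231 numbered 796 of the 1343 HAUSP peaks of that breast cancer line, or 59.3% (95% Clopper-Pearson interval 56.6 to 61.9). They were chosen by position: a peak of MDA-MB-231 was kept if it had 0 bp in common with every HAUSP peak of H1299, a lung cancer cell line. The other 547 peaks of MDA-MB-231 are called shared here, and 834 of the 1379 HAUSP peaks of H1299 had no MDA-MB-231 peak over them. The peaks came from ChIP-seq, the sequencing of DNA that an antibody recovers from cross-linked chromatin, with 1 library per antibody and line and therefore no replicate. The 4 samples were an anti-HAUSP precipitate of each line, an anti-HIF-1α precipitate of H1299 and an H1299 input, and the input was not used here. Both lines were grown in DMEM with fetal bovine serum, and neither carried an added allele or agent according to the labels. The oxygen level of the cultures is not given here, and its part was not tested. An input of MDA-MB-231 was not analysed here, the depth of each library is unknown, and the score of a peak is the value the authors deposited, with no scale given, and with 1 library per line a difference between libraries and a difference between the lines cannot be told apart. Intervals cover counting error only.

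HAUSP, also called USP7, is a deubiquitinase that removes ubiquitin from MDM2, p53 and several chromatin regulators, and it acts in the nucleus. It has no DNA-binding domain of the kind that transcription factors have, so it is recovered with chromatin through the proteins it associates with. HIF-1α is the oxygen-regulated subunit of the HIF-1 transcription factor, which binds ACGTG-type sites and drives glycolytic genes. Tandem repeats are stretches of DNA in which a short unit is copied head to tail. Minisatellites are those with units longer than the few bases of a microsatellite, and many of them lie toward the ends of human chromosomes.

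Most of the 796 peaks lay on DNA that repeats itself within the peak. A peak was said to hold recurring words when at least 20% of its 12-base words occurred more than once in it, a measure chosen after the sequences had been looked at. From the high-scoring peaks with copies 7 to 99 bases apart, 6 are shown to make the repeats visible. Each line is a 150-base window of the plus strand of hg19, 5′ to 3′, taken where the copies are densest. Capitals mark the most frequent 12-base word of the whole peak.
PTPRN2 intron, chr7:158130201-158130350: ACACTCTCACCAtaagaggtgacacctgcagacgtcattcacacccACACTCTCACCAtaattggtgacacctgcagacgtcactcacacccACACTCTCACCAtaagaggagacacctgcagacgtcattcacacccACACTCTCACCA
PTPRN2 intron, chr7:157939790-157939939: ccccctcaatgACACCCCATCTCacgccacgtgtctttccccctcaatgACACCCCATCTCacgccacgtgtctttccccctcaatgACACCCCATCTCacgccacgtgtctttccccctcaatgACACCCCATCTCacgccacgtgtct
LRRC27 intron, chr10:134177805-134177954: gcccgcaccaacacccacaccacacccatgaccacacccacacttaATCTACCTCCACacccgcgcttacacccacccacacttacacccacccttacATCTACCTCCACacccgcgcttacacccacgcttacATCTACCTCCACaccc
FAM120B intron, chr6:170707521-170707670: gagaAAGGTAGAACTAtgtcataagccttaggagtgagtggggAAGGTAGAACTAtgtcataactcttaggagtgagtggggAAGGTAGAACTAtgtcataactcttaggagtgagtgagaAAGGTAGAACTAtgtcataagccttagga
near FAM99A, chr11:1691814-1691963: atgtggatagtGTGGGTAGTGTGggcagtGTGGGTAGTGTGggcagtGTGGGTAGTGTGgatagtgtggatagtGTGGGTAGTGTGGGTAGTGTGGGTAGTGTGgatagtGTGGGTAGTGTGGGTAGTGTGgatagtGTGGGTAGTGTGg
CNTNAP2 intron, chr7:148028536-148028685: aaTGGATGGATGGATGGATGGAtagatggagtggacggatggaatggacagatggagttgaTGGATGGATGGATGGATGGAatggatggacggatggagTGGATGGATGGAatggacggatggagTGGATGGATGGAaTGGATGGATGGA
The most frequent distance between neighbouring copies was 46 bases in the first PTPRN2 peak, 38 in the second, 52 in LRRC27, 39 in FAM120B, 18 near FAM99A and 13 in CNTNAP2. The marked word occurred 25, 50, 9, 49, 26 and 50 times in those peaks, in the same order. The marked words differed between the 6 peaks. Distances were taken over all recurring words of a peak. Some copies of the marked word in the FAM99A and CNTNAP2 windows overlap, and so stand closer than the distances given for them.

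The shortest units are shown by the peak with a 2-base distance and the highest score.
GOLM2 promoter, chr15:44580640-44580789: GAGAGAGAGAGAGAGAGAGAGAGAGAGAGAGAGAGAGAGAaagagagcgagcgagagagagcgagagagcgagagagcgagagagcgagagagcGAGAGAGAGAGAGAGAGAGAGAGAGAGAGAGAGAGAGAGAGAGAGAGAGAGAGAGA
The peak held GA repeats at the start of GOLM2, which encodes a Golgi membrane protein, and scored 220.0.

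Among the highest-scoring peaks without such repeats, 5 that hold the word ACGTG were picked to be shown for contrast. They lay at the promoters of GPI and GAPDH and in introns of MOB3A, LINC01088 and EGLN3. Not all such peaks held the word: it was present in 66.7% of the 324 peaks without recurring words. Capitals mark ACGTG on either strand, the core of the hypoxia-response element.
GPI promoter, chr19:34850196-34850345: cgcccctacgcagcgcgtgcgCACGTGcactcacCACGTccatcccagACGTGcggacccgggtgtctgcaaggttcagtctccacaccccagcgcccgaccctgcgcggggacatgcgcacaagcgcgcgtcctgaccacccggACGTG
GAPDH promoter, chr12:6642583-6642732: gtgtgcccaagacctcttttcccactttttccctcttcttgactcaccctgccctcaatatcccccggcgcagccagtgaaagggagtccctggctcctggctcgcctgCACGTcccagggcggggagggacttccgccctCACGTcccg
MOB3A intron, chr19:2087153-2087302: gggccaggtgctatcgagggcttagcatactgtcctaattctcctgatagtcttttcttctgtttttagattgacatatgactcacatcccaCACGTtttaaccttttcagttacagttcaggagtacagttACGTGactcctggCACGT
LINC01088 intron, chr4:80131481-80131630: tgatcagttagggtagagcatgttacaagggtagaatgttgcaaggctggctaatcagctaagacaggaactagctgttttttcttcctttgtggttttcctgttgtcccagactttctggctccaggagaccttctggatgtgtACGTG
EGLN3 intron, chr14:34407554-34407703: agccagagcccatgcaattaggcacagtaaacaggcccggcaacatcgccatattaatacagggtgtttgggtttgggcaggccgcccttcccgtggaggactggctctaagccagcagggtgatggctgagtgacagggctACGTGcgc
The GPI peak held 5 such matches, all in the window shown, and the GAPDH peak held 6. A CACGTG, as in the GPI window, counts once on each strand. The MOB3A peak held 3, and the LINC01088 and EGLN3 peaks held 1 each. A match of 5 bases is frequent by itself, and its share in other sequence is given with the sequence words.

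Recurring words were held by 472 of the 796 peaks, or 59.3% (interval 55.8 to 62.7), against 56.8% of all MDA-MB-231 peaks and 53.2% of the shared ones. The share was thus near that of the whole MDA-MB-231 list. It was 16.1% in the HAUSP peaks of H1299 without an MDA-MB-231 peak. The sequence beside the peaks held far fewer, since in 1586 flanks of the same width and 2000 bp away the share was 7.25%, and flanks of the shared peaks stood at 18.5%. Among 132332 tiles of 1080 bp taken along the genome the share was 1.15%. The percentage of recurring words had a median of 27.1 over the 796 peaks and of 0.447 over their flanks, and the highest peak reached 90.9.

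The distance between copies separated the 796 peaks from the shared ones more than the bare share did. Copies 7 to 99 bases apart were found in 342 peaks, or 43.0% (interval 39.5 to 46.5), against 36.5% of all MDA-MB-231 peaks and 27.1% of the shared peaks. The share was 9.47% in the H1299 peaks without an MDA-MB-231 peak, 4.54% in the flanks and 0.671% in the tiles. Copies 100 or more bases apart were found in 97 peaks, or 12.2%, against 14.5% of all MDA-MB-231 peaks and 17.9% of the shared peaks. A distance of 171 bases, the length of the alpha-satellite unit of centromeres, stood in 14 peaks, or 1.76%. It stood in 2.90% of all MDA-MB-231 peaks and in 4.57% of the shared peaks. The distances most often seen were 2 bases in 20 peaks, 24 in 15, 171 in 14 and 20 in 13, so no single unit length prevailed. The pentamer GGAAT in tandem, a mark of another centromeric satellite, was present in 7 peaks, or 0.879%. It was present in 4.62% of all MDA-MB-231 peaks and in 10.1% of the shared peaks.

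The score and the repeats were read together within the MDA-MB-231 list, since scores of different lists need not be on the same scale. The 796 peaks had a median score of 65.1, from 50.01 to 379.55, and the shared peaks a median of 106 with a highest score of 2883. A score of at least 100 was reached by 121 of the 796, or 15.2%, against 53.4% of the shared peaks and 30.8% of the whole list. Of those 121 peaks 71.1% held recurring words, against 57.9% of the shared peaks past the same score. The 472 peaks with recurring words had a median score of 68.9 and the 324 without had 59.96, while the highest score of all belonged to a peak without them. Width had a median of 1080 bp, from 389 to 6890, and of 1161 bp in the shared peaks.

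The peaks leaned toward chromosome ends. Within 5 Mb of an end lay 275 of them, or 34.5% (interval 31.2 to 38.0), against 28.4% of all MDA-MB-231 peaks, 19.6% of the shared peaks, 16.7% of the unmatched H1299 peaks and 7.11% of the tiles. The first megabase held 68 peaks, the second 67 and the stretch from 2 to 5 Mb another 140. Of the 275 peaks, 219 or 79.6% held recurring words, and of the 521 farther in 253 or 48.6% did. Beyond 20 Mb from an end 42.2% of 306 peaks still held them, against 45.4% of the shared peaks and 0.7995% of the tiles at that distance. Over 5 Mb from an end the shared peaks stood at 47.95%, near the 48.6% above. Without the peaks near assembly gaps, 25.9% lay within 5 Mb of an end and 55.1% held recurring words.

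**Figure D1:**
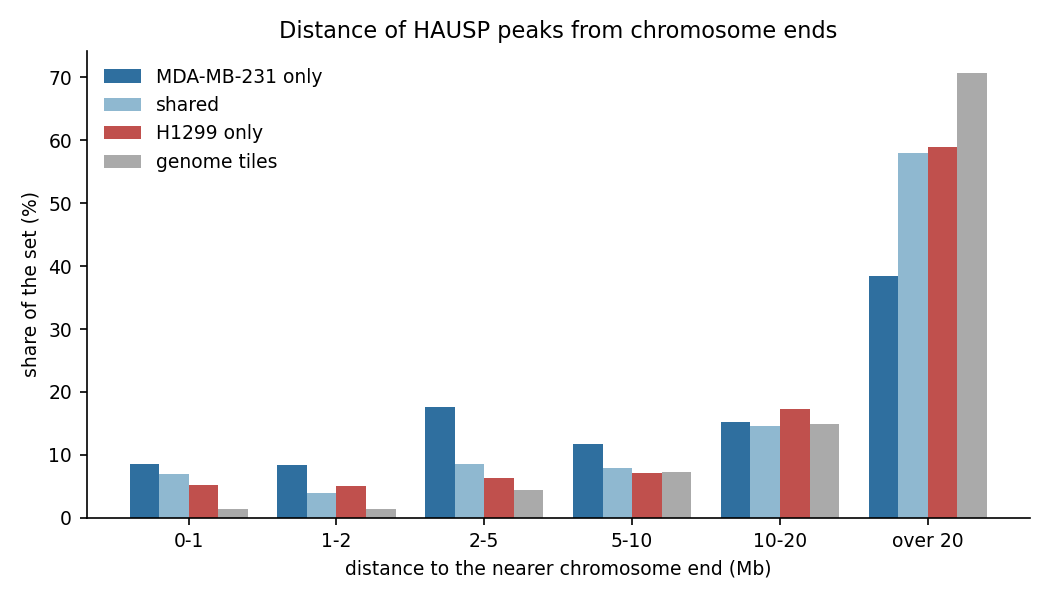
Share of each set (%) by distance to the nearer chromosome end (Mb), for HAUSP peaks found only in MDA-MB-231, shared peaks, H1299 peaks without an MDA-MB-231 peak and genome tiles. The MDA-MB-231 peaks hold 17.6% of their number between 2 and 5 Mb, against 8.59% of the shared peaks and 4.35% of the tiles.

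Runs of N of at least 50 kb mark centromeres and other parts that the assembly lacks. Within 1 Mb of such a gap lay 232 of the 796 peaks, or 29.1% (interval 26.0 to 32.4), against 37.8% of all MDA-MB-231 peaks, 50.5% of the shared ones and 10.1% of the tiles. Of these 232 peaks, 129 or 55.6% also lay within 5 Mb of a chromosome end, against 25.9% of the peaks not near a gap. At 100 kb in place of 1 Mb the share near a gap was 9.55%. The part of nearby gaps in these peaks was not tested.

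Chromosomes differed in how many such peaks they carried. The density was 0.279 peaks per Mb over all assembled sequence. It was highest on chromosome 19 with 0.842, then on chromosome 20 with 0.706 and chromosome 17 with 0.527. It was lowest on X with 0.0331, then on chromosome 3 with 0.0873 and chromosome 15 with 0.0979. On chromosome 13, 24 of the 30 MDA-MB-231 peaks had no H1299 peak over them, while H1299 had 1 unmatched peak there. On Y only 4 of 39 MDA-MB-231 peaks had no H1299 peak over them, or 10.3%. A peak on Y is a place in the reference to which reads were assigned, and whether either line carries Y was not analysed here. The DNA copy number of these chromosomes in the lines was not analysed here, and its part was not tested.

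Groups of neighbouring peaks were seen, most of them toward chromosome ends. Runs of 3 or more peaks with neighbours less than 100 kb apart numbered 29 and held 101 of the 796 peaks, or 12.7% (interval 10.5 to 15.2). The shared peaks formed 29 runs with 25.05% of their number, and the unmatched H1299 peaks 28 runs with 12.6%. Of the runs of the 796 peaks, 20 of 29 lay within 5 Mb of an end, of the shared runs 1 of 29 and of the unmatched H1299 runs 7 of 28. With neighbours less than 10 kb apart 1.13% of the peaks stood in runs, and none of those with a score of at least 100 did at 100 kb. The megabase with most peaks was on chromosome 20 between 60 and 61 Mb, with 13, and it held 0 shared and 0 H1299 peaks.

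The runs with most peaks are given first. The run with most peaks, 6, spanned chr13:114453298-114579778 over TMEM255B and GAS6, the latter the ligand of the AXL, TYRO3 and MERTK receptors, and all 6 held recurring words. A run of the same size lay in CDH4, which encodes R-cadherin, at chr20:59950057-60121762, with recurring words in 5 of its peaks. A run of 5 followed in CDH4 and TAF4, a subunit of the general factor TFIID, at chr20:60330038-60558047. Of the 6 runs of 4 peaks, the pair with the highest scores lay in PTPRN2, a receptor-type phosphatase of secretory vesicles, at chr7:157877222-157942307 and chr7:158054769-158130632. The others lay near SHISA7, on chromosome 8, around SLC38A10 and near THBS2.

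PTPRN2 held 13 of the peaks, the most of any protein-coding gene, and CDH4 held 10. No shared peak and no H1299 HAUSP peak lay in either gene. The 13 PTPRN2 peaks were all intronic and all held recurring words, with distances between copies from 18 to 174 bases. Their scores ran from 50.1 to 311, with a median of 93.1, and 2 of them exceeded 300 while the others stayed at or under 107. In CDH4 7 of 10 held recurring words, and scores ran from 50.1 to 133 with a median of 73.5. PTPRN2 is 1049 kb long and CDH4 688 kb, so that both offer much sequence. ADARB2, an RNA-editing family member, held 4 peaks, all with recurring words, and DPP6 and TMEM255B held 3 each. In all, 338 peaks lay in 312 protein-coding genes, and 23 of these genes held 2 or more.

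Promoters took a small share of the peaks. The interval from 500 bp before to 500 bp after a gene start was touched by 84 of the 796, or 10.6% (interval 8.51 to 12.9), against 13.4% of all MDA-MB-231 peaks, 17.6% of the shared peaks and 43.4% of the unmatched H1299 peaks. It was touched by 6.24% of the flanks and 4.31% of the tiles. Only protein-coding starts gave 4.77%, the peak centre inside the window 5.28%, a window of 2000 bp 17.2% and the start of every transcript 16.1%. Introns held 374 of the peaks, or 47.0%, against 39.31% of all MDA-MB-231 peaks, 28.15% of the shared peaks and 54.6% of the tiles. The intron share was thus above that of the shared peaks and under that of the tiles. Exons held 26 peaks. Between genes lay 312 or 39.2%, against 51.01% of the shared peaks and 36.78% of the tiles. The median distance from a peak centre to the nearest gene start was 13357 bp, against 13672 bp in the shared peaks and 2365 bp in the unmatched H1299 peaks. Promoters and repeats were largely apart: of the 84 peaks 22.6% held recurring words, and of the others 63.6%.

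The promoter windows belonged to 106 of 64449 annotated genes, among them 47 protein-coding genes, 34 long noncoding RNAs and 9 processed pseudogenes. The 2 highest promoter peaks were those of GPI with the divergent ENSG00000267219, at 356, and of GAPDH with GAPDH-DT, at 263. They were followed by GOLM2 with ENSG00000289277 at 220.0 and by FLOT1, which encodes flotillin of membrane rafts, with IER3-AS1 and HCG20 at 212. UBE2QL1, a ubiquitin-conjugating enzyme family member, had a peak of 156 with 59.0% recurring words and copies 24 bases apart. Next came ENSG00000248346 at 155, ENSG00000267096 at 150.49, RN7SL466P at 142, TSPAN14-AS1 at 136, ENSG00000254883 at 127 and the pseudogene H3P41 at 126. PRLH, which encodes prolactin-releasing hormone, had 101 with 56.4% recurring words, ZNF114 had 92.8, ENSG00000280920 had 86.8 and ENSG00000283259 had 86.1.

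Of the gene lists laid down for this tissue and protein, few had such a peak at a promoter. None of 22 genes of the p53 pathway did, none of 36 HIF target genes, none of 30 Polycomb genes, none of 41 genes of epithelial-mesenchymal transition and basal breast cancer and none of 17 AP-1 genes. Over all annotated genes 0.164% did, which is the share to set beside these counts. The list of 36 HIF target genes did not include GPI, GAPDH and PGAM1, whose promoters had such a peak over a HIF-1α peak of H1299. Shared peaks stood at 8 of the HIF target genes, which include ENO1, LDHA and P4HA1. Among 183 histone genes H3-3B, which encodes histone H3.3, and H3P41 had one. Among 760 genes with a zinc finger symbol, a list that also holds noncoding RNAs, ZNF114, ZNF383, ZNF585B and the noncoding ZNF584-DT did. Among 1693 ribosomal protein genes and pseudogenes RPL3, RPS29 and RPL36P6 did, and of 1900 spliceosomal RNA genes 0 did. The H3-3B, RPL3 and RPS29 peaks had scores of 56.9, 59.9 and 75.7, all without recurring words.

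Overlap with HIF-1α peaks of H1299 was rare and fell on 3 glycolytic genes. Only 3 of the 796 peaks overlapped 1 of the 4054 HIF-1α peaks, or 0.377% (interval 0.0778 to 1.10), against 4.91% of all MDA-MB-231 peaks and 63 or 11.5% of the shared ones. HIF-1α and H1299 HAUSP come from the same line, and the rule removed every peak over the latter. The 3 lay at the promoters of GPI, glucose-6-phosphate isomerase, of GAPDH, glyceraldehyde-3-phosphate dehydrogenase, and of PGAM1, phosphoglycerate mutase, which starts divergently from RRP12. The GPI peak at chr19:34849671-34850938 covered the HIF-1α peak with the highest score in its list, 1236. The GAPDH peak at chr12:6642168-6644499 covered a HIF-1α peak of 280, and the PGAM1 peak, chr10:99185409-99186239 with a score of 65.4, one of 263. The nearest HAUSP peak of H1299 was 280329, 1101936 and 106100 bases away from these 3.

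The glycolytic enzymes were then looked at as a set of 16 genes, chosen after these 3 had been seen. A HIF-1α peak of H1299 touched the promoter window of 5 of them, and each of the 5 also had a HAUSP peak in MDA-MB-231. Over all protein-coding genes 82, or 0.407%, had a HIF-1α peak there, and 34 of the 82, or 41.5%, also had a HAUSP peak of MDA-MB-231. Since the set was picked after 3 of its genes were seen, its counts are a description. At GPI, GAPDH and PGAM1 that peak had no H1299 HAUSP peak over it. At ENO1 and LDHA it was shared, with scores of 218 and 128 in MDA-MB-231. HK2 had a HAUSP peak of H1299 alone in that window, with a score of 134, and the other 10 genes had none there in any list. Outside the window, a peak found only in MDA-MB-231 with a score of 76.9 lay in an intron of PFKP, among these 10 genes.

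The highest peaks without recurring words also lay off promoters and off the HIF-1α peaks, and a few were near genes of the hypoxia response. The highest score of the 796, 379.55, was that of a peak in a MOB3A intron at chr19:2086753-2087903, 2880218 bases from the nearest HIF-1α peak. The sixth highest, 281, lay in an intron of the noncoding LINC01088 at chr4:80131091-80132135. A peak of 252 on chromosome 8 lay 72796 bases from the start of NDRG1, a hypoxia-induced gene, and held 7 ACGTG matches counted over both strands. A peak of 228 lay in an intron of EGLN3, the prolyl hydroxylase PHD3 that marks HIF-α for degradation, at chr14:34407154-34408261, and was 626886 bases from a HIF-1α peak. PFKFB3, which makes the activator of phosphofructokinase, held a peak of 74.1 in its body, 56587 bases from its start. Counted over the list, 3 of 36 HIF target genes, namely DDIT4, NDRG1 and PFKFB3, started within 100 kb of 1 of the 796 peaks, or 8.33%, and of all protein-coding genes 7.19% did. EGLN3, also in the list, was not counted, since the count goes by the annotated gene start and the peak in its body lay over 100 kb from that start. The count was thus near the background, and for the shared peaks it was 14 of 36 against 5.07%. The single peaks are therefore given as positions only. At the same distance 4 of 41 genes of epithelial-mesenchymal transition and basal breast cancer were reached, or 9.76%: AXL, a receptor of GAS6, the integrin gene ITGB4 and the keratin genes KRT14 and KRT17. Of the p53 pathway 1 of 22 genes was reached, BBC3, which encodes the apoptosis protein PUMA, of the AP-1 genes 3 of 17, ATF4, JUNB and MAFK, and of the Polycomb genes 1 of 30, CBX6. Histone genes stood at 7.10% of 183, and genes with a zinc finger symbol at 10.3% of 760.

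The rest of the highest peaks were ranked by their distance to a gap. Over 1 Mb from a gap, the peak in a CNTNAP2 intron scored 209. Within 1 Mb of a gap, the highest were in LRRC27 at 294, at GAPDH, in FAM120B at 240.12, near FAM99A at 237 and near ENSG00000282973 on chromosome 16 at 181. All of these but the GAPDH peak held recurring words.

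Base composition set the peaks apart from their surroundings less than the repeats did. The GC content had a median of 49.4%, against 46.9% in their flanks, 48.4% in the shared peaks and 39.8% in the tiles. The ratio of observed to expected CpG was 0.269, near the 0.257 of the flanks and under the 0.372 of the shared peaks. A quadruplex pattern, 4 runs of at least 3 G or C with up to 7 bases between them, was held by 126 peaks, or 15.8%. It was held by 17.65% of all MDA-MB-231 peaks, 20.3% of the shared peaks, 32.6% of the unmatched H1299 peaks, 23.8% of the flanks and 10.5% of the tiles. This pattern too was chosen after the data were seen.

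Sequence words fixed for these data were counted on both strands. ACGTG was held by 476 peaks, or 59.8% (interval 56.3 to 63.2), against 59.2% of all MDA-MB-231 peaks, 47.0% of the flanks and 34.7% of the tiles. In the central 200 bp of each peak the share was 26.3%. Over whole peaks it was 66.7% among the 324 peaks without recurring words. It was 80.0% among the 35 of these with a score of at least 100. In the shared peaks it was 58.3% and in the unmatched H1299 peaks 66.8%. The 121 peaks past that score had a median width of 1458 bp, against 1080 bp over the 796. The part of width was not tested. The palindrome CACGTG, which contains ACGTG, was held by 25.8% of the peaks, 24.1% of all MDA-MB-231 peaks, 21.8% of the shared peaks and 17.6% of the flanks. A run of 8 CA copies was held by 128 peaks, or 16.1%, against 13.0% of all MDA-MB-231 peaks, 3.03% of the flanks and 3.20% of the tiles. The AP-1 word TGANTCA was held by 21.1% of the peaks, 29.9% of the flanks and 29.6% of the tiles. The peaks split by their repeats, with 12.3% of those with recurring words and 34.0% of those without. CCACNAGG, a core of the CTCF site, was held by 11.6% of the peaks, 12.1% of all MDA-MB-231 peaks, 18.1% of the flanks and 11.1% of the tiles. It was held by 9.53% of the peaks with recurring words and 14.5% of those without. ATGGCGGC, a core of the YY1 site, was held by 10 peaks or 1.26%, by 1.94% of all MDA-MB-231 peaks and by 1.26% of the flanks.

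The edge of the rule lay far from most peaks. The peaks just inside it were near LINC00545 at 62 bases from an H1299 peak, REXO1L8P at 177, LRFN3 at 216, HSPA8P13 at 378 and LINC01691 at 442. By bases in common, the shared peaks just outside it were narrow ones that lay almost wholly in an H1299 peak. They overlapped by 360 bases near SSBL2P, 369 near ENSG00000264431, 376 near EMB, 379 near ENSG00000271375 and 381 near RCC2P1. By the share of the shorter peak that was covered, the lowest were a peak on chromosome 11 with 20.6% and a peak on chromosome 10 with 49.3%. Only 39 of the 796, or 4.90%, lay within 10 kb of an H1299 HAUSP peak and 170 or 21.4% within 100 kb, and the median distance was 508830 bases.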

How the data were processed

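The authors aligned their reads against hg19 (Bowtie 0.12.7), called peaks with MACS 1.4.2 at its default parameters and deposited the position and score of each peak, separately for each library. The control used to call peaks is not given in the sources used here. The 3 deposited lists were used whole. Starts were counted from 1, sequence came from GRCh37, and genes came from GENCODE 44 as lifted to that assembly. Peaks counted as overlapping at an overlap of 1 bp, and no test was made, since each list is 1 library. Repeat masking was not used, since the reference holds none, so recurring words were counted. The overlap, annotation and word steps were tested on simulated data. Peaks named are the 10 highest by score over 1 Mb from a gap and the 5 highest within it, the 15 highest at promoters, those over HIF-1α peaks, the 5 longest runs, 5 on each side of the rule, and promoter genes of the lists; others were chosen after their values were seen. Some items that the rule selects are not reported here. The members and lists were chosen with earlier results of these data known. Software was samtools 1.23.1, pysam 0.24.0, pandas 2.3.3, numpy 2.4.6, scipy 1.17.1, matplotlib 3.10.9 and Python 3.11.15.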

Additional observations from a re-analysis of the deposited data

How the results depend on the processing

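Of 85 alternative values, 47 stayed within the interval of the reported share or median, or near the reported count, and 38 moved. Counts called near were within 1.5 times the reported one: 1045 of the MDA-MB-231 peaks had no overlap when H1299 peaks under a score of 100 were dropped, against 796, and the start of every transcript gave 153 genes, against 106. A score of at least 70 left 332 peaks. A score of at least 100 left 121 peaks and 17 promoter genes, with a median width of 1458 bp, a median score of 129, 37.2% near a gap, a GC content of 50.2%, ACGTG in 70.2%, recurring words in 71.1%, 40.5% near a chromosome end and 0% in runs. Without peaks near a gap 34.6% lay between genes, 55.1% held recurring words, 25.9% lay near an end and 9.40% stood in runs. The promoter share was 13.3% with 1000 bp, 17.2% with 2000 bp (178 genes), 4.77% for protein-coding genes only (47 genes), 5.28% for the peak centre (55 genes) and 16.1% for every transcript. The gap share was 9.55% within 100 kb and 33.2% with gaps of at least 10 kb. ACGTG in the central 200 bp stood at 26.3%. Runs held 1.13% of the peaks at 10 kb and 49.9% at 1 Mb. Recurring words were held by 68.2% at a minimum of 10% of words, 46.7% at 30% and 40.6% with 16-base words. The alternatives on recurring words and chromosome ends were chosen after seeing the data. The cause of these moves was not tested beyond the fewer peaks or the wider or narrower windows that define each alternative. No paired analysis was possible because there was a single library behind every list, and leaving out a replicate was not possible for the same reason. The planned measure of masked repeats was not run. Depth is unknown, so how many of the peaks lay just under the threshold in H1299 was not tested.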
